A study of Zea mays with 7 samples.

Results

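Broad husk-only H3K9ac domains are stretches of the maize genome that carried acetylated histone H3 over more than 2000 bp in husk leaves and lay well away from any acetylated region listed for seedling stem. They were selected from the deposited list of husk H3K9ac-enriched regions by measured values: a length over 2000 bp, no shared base with a region of V2-IST, the inner stem of seedlings at stage V2, and a gap of more than 5000 bp to the nearest V2-IST region. The selection left 1435 domains, or 5.12% of the 28004 husk regions (95% Wilson interval 4.87 to 5.39%). Length, separation and absence from the V2-IST list were thus fixed by the choice and are given only as a description.

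ChIP-seq for acetylated lysine 9 of histone H3 was done on untreated plants of the inbred line B73, the line of the maize reference genome, grown in the greenhouse. The husk samples (3 replicates) were the soft inner leaves around the ear, taken from flowering plants with emerging silks before pollination. The V2-IST samples (2 replicates) were the stems of young seedlings, freed of the outer leaves and exposed blades. The series' records list 1 input sample per tissue, of chromatin without immunoprecipitation. Both are mixtures of cell types, so fewer acetylated cells and less acetylation per cell cannot be told apart.

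The authors deposited 1 list of regions per tissue, giving chromosome, start and end on B73 RefGen_v4 (AGPv4), with 28004 regions in husk and 17170 in V2-IST. Each list combines its replicates, and the lists hold no signal, score or depth. A domain absent from the V2-IST list was therefore not detected there under the calling rule, which does not show that acetylation was absent. Tissue cannot be told apart from the number of replicates merged, and the part of depth was not tested. The intervals below are 95% intervals (Wilson for shares, order statistics for medians). They reflect only how many regions, candidates or genes were counted. None of these are replicates, and the spread between plants is not covered.

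Acetylation of H3K9 is added by histone acetyltransferases and removed by histone deacetylases. It is a mark of active chromatin in plants and animals, typically strongest just after the transcription start site (TSS) of transcribed genes, and it is also found at active enhancers, the regulatory sequences that act on genes from a distance. Most acetylated regions span only a few nucleosomes, the units of DNA wrapped around histones. Domains of several kilobases cover many nucleosomes in a row, and may take in a promoter, a gene body, a regulatory sequence, or more than 1 of these.

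Lengths ran from 2001 to 9692 bp, with a median of 2592 bp (2556 to 2641 bp) and quartiles of 2249 and 3173 bp. Together the domains covered 4135118 bp. The lengths thinned out quickly above the limit. Between 2000 and 2500 bp lay 619 domains (43.1%), between 2500 and 3000 bp 376, between 3000 and 4000 bp 291, between 4000 and 5000 bp 86, and above 5000 bp 63 (4.39%).

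The separation from listed V2-IST regions was usually much larger than the selection asked for. The gap to the nearest V2-IST region had a median of 42480 bp (38817 to 46671 bp), quartiles of 15797.5 and 91873.5 bp, and a range of 5009 to 886418 bp. The interval without any V2-IST region in which a domain lay had a median length of 202143 bp (n = 1434, leaving out 1 domain at a chromosome end, with V2-IST regions on 1 side only). The widest separation belonged to chr1:132400640-132402716, a domain of 2077 bp that lay in an interval of 2115629 bp without a listed V2-IST region. It overlapped none of the husk enhancer candidates described below.

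The limits fell within a continuous range of regions. The 3 shortest domains, chr3:6139208-6141208, chr5:55642739-55644739 and chr5:89922922-89924923, measured 2001, 2001 and 2002 bp, and 3 regions with the same separation missed the limit at exactly 2000 bp (chr2:208363427-208365426, chr3:99203468-99205467 and chr6:166354762-166356761). The 3 domains closest to a listed V2-IST region, chr6:138747956-138750060, chr8:177659153-177663305 and chr1:82567019-82569216, had gaps of 5009, 5024 and 5040 bp. Just outside were chr9:111953774-111956555, chr2:1526099-1528439 and chr8:72399372-72401409, with gaps of 4996, 4974 and 4915 bp.

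The 10 longest domains were spread over 7 chromosomes, and 6 of them overlapped at least 1 enhancer candidate. The longest, chr1:270978430-270988121, spanned 9692 bp and lay 58338 bp from the nearest V2-IST region. Candidate H1259 sat at 1 edge of it, so that acetylation ran on for 6948 bp to the other side and the candidate stuck out by 26 bp. The domain chr8:155951011-155960228 spanned 9218 bp and overlapped no candidate. The domain chr1:33992447-34001587, of 9141 bp, held 4 candidates in a row, H261, H1170, H1015 and H49. These 3 domains alone show a candidate at an edge, no candidate, and several candidates inside.

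The next domain by length, chr4:181346885-181354974 with 8090 bp, joined candidate H316 and the start of the gene Zm00001d052152 in 1 acetylated stretch. The domain chr2:25168770-25176365 (7596 bp) held candidate H196 with 5607 bp of acetylation on 1 side and 1163 bp on the other. The domain chr9:89728904-89735768 (6865 bp) overlapped H1057 and was the only husk region in an interval of 204466 bp without a listed V2-IST region. In chr1:53326679-53333373 (6695 bp), candidate H1084 filled nearly the whole domain and left 98 and 41 bp at its sides. The last of the 10, chr5:190355484-190362007 (6524 bp), chr7:168158333-168164799 (6467 bp) and chr4:182748783-182755143 (6361 bp), overlapped no candidate.

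To see where the domains differed from other husk acetylation, they were set beside 8512 narrow husk-only regions, of at most 2000 bp and with the same separation from V2-IST, and 2293 broad shared regions, over 2000 bp long in husk and overlapping a V2-IST region. The narrow husk-only regions had a median length of 869.5 bp. The broad shared regions had a median length of 2710 bp (2663 to 2759 bp) and a maximum of 12348 bp. A median of 37.2% of the length of a broad shared region was also listed in V2-IST. The broad shared regions were thus of similar length to the domains in husk, while the narrow regions shared their absence from the V2-IST list.

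Breadth was about as frequent far from listed V2-IST regions as on top of them. Of the 9947 husk regions more than 5000 bp from a V2-IST region, 14.4% were longer than 2000 bp (13.7 to 15.1%), against 14.3% of the 16052 husk regions that overlapped one (13.8 to 14.8%). In the zone between, apart from V2-IST regions but within 5000 bp, the share was 17.8% (16.2 to 19.5%, 357 of 2005). With growing distance it stayed at 14.9, 14.0, 15.1, 14.3 and 14.3% in the classes 5 to 10, 10 to 20, 20 to 50, 50 to 100 and 100 to 200 kb, and was 12.7% beyond 200 kb (10.3 to 15.5%). Within the domains, the median length was 2656.5 bp in the nearest class and 2379 bp in the farthest, where 81 domains lay.

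**Figure D1:**
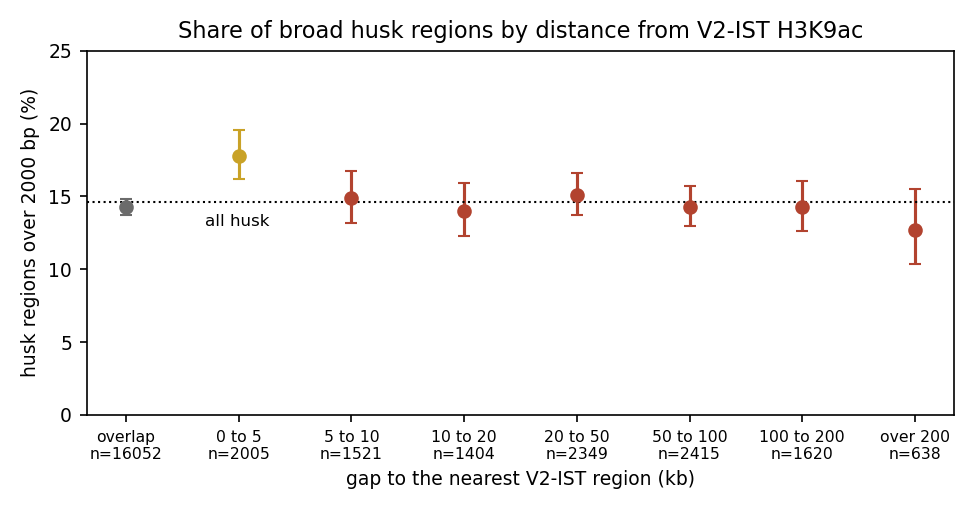
Percentage of husk H3K9ac-enriched regions longer than 2000 bp (y axis) by edge-to-edge gap to the nearest V2-IST region in kb (x axis), with 95% Wilson intervals as bars and the share over all husk regions (14.6%) as a dotted line. The red points, from 5 kb on, hold the 1435 broad husk-only domains. They range from 12.7 to 15.1%, and the point for a gap up to 5 kb is at 17.8%.

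Seen from the chromosomes, the domains occurred on all 10, from 251 on chromosome 1 to 81 on chromosome 10. Per Mb of chromosome span, counted to the last listed region, this came to 0.818 domains on chromosome 1 and 0.537 on chromosome 10. The share of broad regions among all separated husk-only regions was 17.3% on chromosome 1 (15.4 to 19.3%, 251 of 1452) and lowest, at 12.2%, on chromosomes 4 (10.4 to 14.3%) and 10 (9.91 to 14.9%). The difference in domain number between chromosomes 1 and 10 was thus made of both more husk-only regions and a larger broad share.

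Maize chromosomes carry most of their genes towards the arms' ends, while the stretches around the centromeres are rich in transposable elements. The outer 20% at each end of the chromosome span held 56.4% of the domains (53.8 to 58.9%), 51.8% of the narrow husk-only regions (50.7 to 52.8%) and 62.0% of the broad shared regions (60.0 to 63.9%), against 54.7% of all husk regions, which is inside the interval of the domains. The order was turned round in the middle 20% of the span, with 9.83% of the domains (8.39 to 11.5%), 14.0% of the narrow husk-only regions (13.3 to 14.7%) and 8.33% of the broad shared regions (7.27 to 9.53%), against 12.6% of all husk regions. In bins of 10% of the span, the domains were sparsest in bin 4, with 4.04%, and densest in bin 10, with 16.7%. In the middle of the span the domains were close to the other broad regions, and at its ends they lay near the share over all husk regions.

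**Figure D2:**
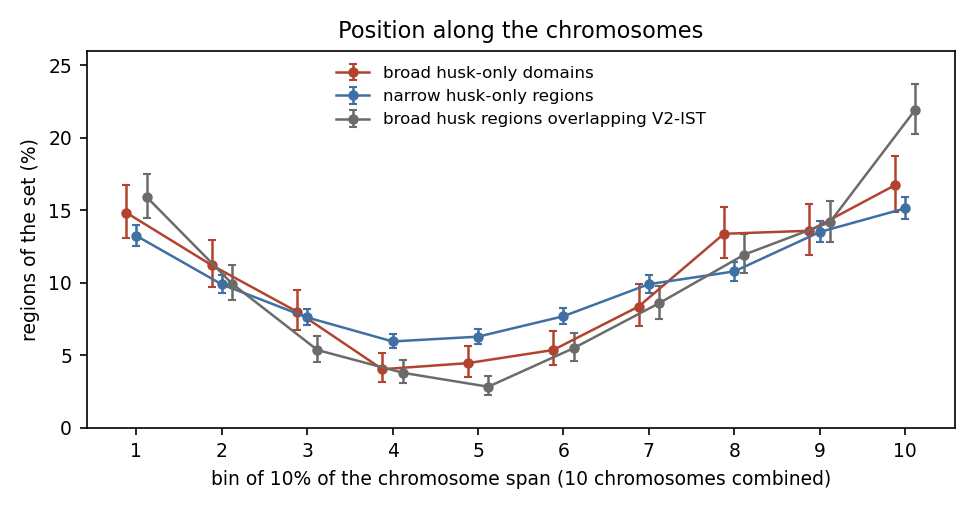
Percentage of each set of regions (y axis) in each bin of 10% of the chromosome span, with the 10 chromosomes combined (x axis), for the broad husk-only domains (n = 1435), the narrow husk-only regions (n = 8512) and the broad husk regions overlapping V2-IST (n = 2293). Bars are 95% Wilson intervals. The domains fall to 4.04% in bin 4 and reach 16.7% in bin 10, where the broad shared regions reach 21.9%.

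Other husk regions lay nearby more often for the domains than for narrow regions of the same separation, and less often than over all husk regions. Another husk region was within 5000 bp of 22.1% of the domains (20.02 to 24.3%), against 17.1% of the narrow husk-only regions (16.3 to 17.9%), 36.1% of the broad shared regions (34.1 to 38.1%) and 27.6% of all husk regions (27.03 to 28.1%). For the broad shared regions the selection put no limit on V2-IST regions nearby, and without the minimum separation the share of the domains was 36.9%. The median gap to the nearest other husk region was 15282 bp for the domains, 19837 bp for the narrow husk-only regions, 8911 bp for the broad shared regions and 13830 bp over all husk regions. Within 1000 bp, another husk region was found at 3.76% of the domains, 1.97% of the narrow, 3.53% of the broad shared and 2.49% of all husk regions.

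The nearest neighbour of a broad region was broad more often than over all husk regions, though in most cases it was not. The nearest other husk region was longer than 2000 bp for 22.02% of the domains (19.95 to 24.2%), for 15.2% of the narrow husk-only regions (14.4 to 16.0%) and for 21.3% of the broad shared regions (19.7 to 23.0%), against 15.6% over all husk regions. It was another broad husk-only domain for 11.8% of the domains (10.3 to 13.6%), 7.23% of the narrow husk-only regions (6.69 to 7.79%) and 5.93% of the broad shared regions, against 5.17% of all husk regions. Neighbouring domains can be each other's nearest region and are not independent. The nearest other husk region overlapped a V2-IST region for 43.3% of the domains, 47.5% of the narrow husk-only regions, 51.3% of the broad shared regions and 56.0% of all husk regions. The separation asked of the domains limits such neighbours.

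Most domains were the only one of the 1435 in their interval between V2-IST regions. Broad husk regions within 5000 bp of a V2-IST region were not counted here. The 1435 domains lay in 1234 intervals without a V2-IST region, of which 1064 held 1 domain, 147 held 2, 17 held 3, 4 held 4 and 2 held 5. In all, 371 domains shared their interval with another. Taken over the 1435 domains, the interval of a domain held a median of 2 husk regions of any length (2 to 3, at most 11). Husk regions that overlap a V2-IST region, and may reach into an interval from its edge, were not counted. By this count, 385 domains (26.8%, 24.6 to 29.2%) were the only husk region in their interval, against 28.7% of the narrow husk-only regions.

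The densest 1 Mb window was chr1:40000001-41000000, with 8 domains, against 7 in the next. It held 29 husk and 14 V2-IST regions. The domains made up 20993 of the 50480 bp of husk acetylation in the window, where V2-IST regions covered 9702 bp. In an interval of 326914 bp without a listed V2-IST region lay 5 domains, with 140501 bp between the second and the third. The first of these, chr1:40260262-40262400 (2139 bp) and chr1:40266046-40268605 (2560 bp), were followed by chr1:40409107-40413052 (3946 bp), which overlapped candidates H115 and H312. Next to it, chr1:40423783-40425816 (2034 bp) overlapped candidate H291, and chr1:40428181-40430878 (2698 bp) held the start of the gene Zm00001d028601. Candidates and a listed gene start thus lay in separate, adjacent domains here.

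The other 3 domains of the window were chr1:40713100-40715466 (2367 bp), chr1:40716178-40718836 (2659 bp) and chr1:40762982-40765571 (2590 bp). They were the only husk regions lying wholly within an interval of 176504 bp. Husk regions that overlap its flanking V2-IST regions reached into its edges. The first and second of them were 711 bp apart. None of these 3 overlapped a candidate or held a listed gene start. The map of the window shows the domains between the V2-IST regions. The window was picked for its number of domains and the selection set their separation, so this grouping is only a description.

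**Figure D3:**
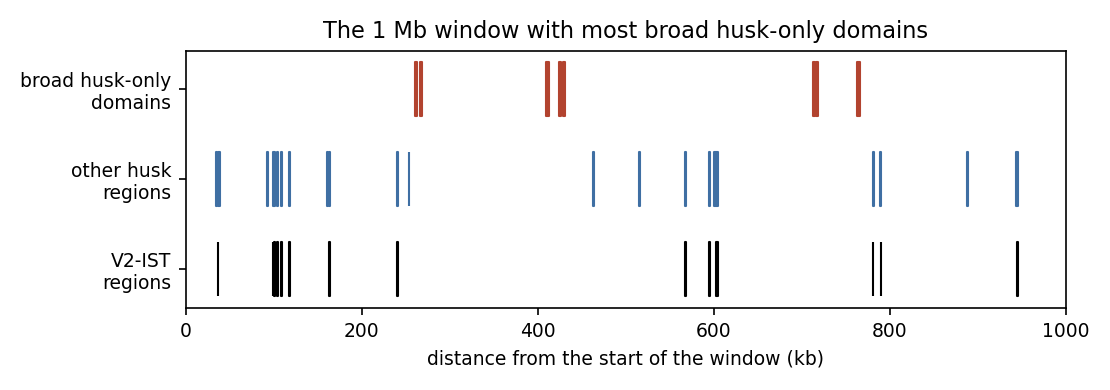
Map of the 1 Mb window on chromosome 1 with the most broad husk-only domains; the x axis is the distance in kb from the start of the window, and bars are drawn to scale. The 8 domains (top) lie apart from the 14 V2-IST regions (bottom), while 14 of the other husk regions (middle) overlap one.

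The study joined H3K9ac with DNase I hypersensitivity, which marks accessible DNA, and low DNA methylation to list enhancer candidates outside genes and promoters. Here only the positions of its 1320 husk candidates were used. By definition a candidate was a weakly methylated region that overlapped both a DNase I hypersensitive site and an acetylated region of husk. The accessible site need not lie in the acetylated part. Methylation came from published data on coleoptile shoots of B73, not on husk. Candidates were overlapped by 169 domains (11.8%, 10.2 to 13.5%), by 7.15% of the narrow husk-only regions (6.63 to 7.72%), by 3.75% of the broad shared regions (3.05 to 4.61%) and by 4.45% of all husk regions. The domains held or touched 211 candidates, 16.0% of the list. None of these was a V2-IST candidate. The selection made this likely, since V2-IST candidates had to overlap V2-IST acetylation, which lay more than 5000 bp from any domain.

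A long region has more room for a candidate than a short one. Per Mb of acetylated sequence, there were 51.0 candidates in the domains, 75.5 in the narrow husk-only regions, 13.5 in the broad shared regions and 36.7 over all husk regions. The domains thus ranked first by the share of regions with a candidate and second by density. In both measures they exceeded the broad shared regions. A candidate that overlapped a region by only 1 bp was counted in full. The mean part of a candidate inside was 86.8% at the domains, 59.4% at the narrow husk-only regions and 73.8% at the broad shared regions. This counting raises the density of the narrow regions most, and a density by the part inside was not computed. The second place is therefore tied to this counting. With at least 50% of the candidate inside, the share of the domains stayed above those of the narrow and the broad shared regions. Candidates were listed only outside genes and promoters, which limits them in regions that lie at genes. The share of each set at genes was not analysed, and its part in this order was not tested. With a length over 3000 bp asked of both, the shares with a candidate were 15.7% of the domains and 7.09% of the broad shared regions.

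Some domains held several candidates. While 136 domains had 1 candidate, 27 had 2, 3 had 3 and 3 had 4, so that 33 domains (2.30%, 1.64 to 3.21%) had 2 or more. The share was 0.106% of the narrow husk-only regions, 0.349% of the broad shared regions and 0.246% of all husk regions. Longer regions have more room for several candidates, and the exclusion of genes and promoters from the candidates applies here too. The 3 domains with 4 candidates, of which the last 2 were chosen after their values were seen, were chr1:33992447-34001587, chr3:171349549-171355783 and chr7:119122780-119126629. In the domain on chromosome 3 (6235 bp), the candidates H107, H912, H171 and H627 measured 1283, 151, 181 and 435 bp. In the domain on chromosome 7 (3850 bp), H1162, H527, H715 and H796 measured 791, 435, 411 and 489 bp. Candidates were also listed as separate items where the acetylation above them was 1 merged region.

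Among the domains, the share with a candidate was about the same up to 4000 bp and higher above. It was 10.3, 9.57 and 10.7% between 2000 and 2500, 2500 and 3000, and 3000 and 4000 bp, then 19.8% between 4000 and 5000 bp (12.7 to 29.4%, 17 of 86) and 33.3% above 5000 bp (22.9 to 45.6%, 21 of 63). Per Mb, the 5 classes had 51.6, 41.0, 40.4, 63.4 and 92.8 candidates. The density was thus highest in the longest domains as well. By distance from listed V2-IST regions, the share ranged only from 9.52 to 15.7% over 6 classes, with the highest value between 10 and 20 kb (11.3 to 21.5%).

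**Figure D4:**
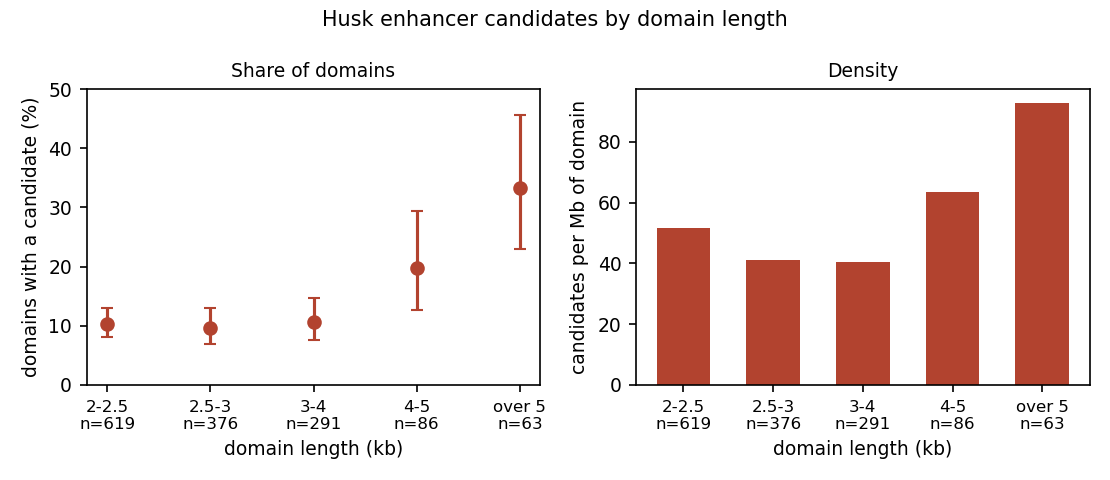
Broad husk-only domains by length class in kb (x axes). The left panel gives the percentage that overlapped a husk enhancer candidate with 95% Wilson intervals, and the right panel the candidates per Mb of domain. Both are highest above 5 kb, at 33.3% and 92.8 per Mb (n = 63 domains).

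Candidates lay inside a domain or across its edge in most cases. Of the 211 candidates, 99 (46.9%, 40.3 to 53.6%) lay wholly inside, 92 (43.6%) crossed 1 edge and 20 (9.48%) reached past both edges. In the narrow husk-only regions, 13.4% of 620 candidates lay inside and 57.1% reached past both edges, and in the broad shared regions these shares were 38.9 and 5.26% of 95 candidates. A candidate longer than its region cannot lie inside it. This applied to 21.8% of the candidates at the domains, 78.2% at the narrow husk-only regions and 8.42% at the broad shared regions. The contrast with the narrow regions thus follows in part from the length limit of the selection. Candidate length was a median of 1618 bp at the domains, 1162.5 bp at the narrow husk-only regions and 1323 bp at the broad shared regions.

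For the 99 candidates wholly inside a domain, acetylation extended by a median of 1757 bp (1529 to 2258 bp) on the longer side and 220 bp (163 to 333 bp) on the shorter. The shorter side made up a median of 12.9% of both flanks (7.88 to 20.4%). In the narrow husk-only regions it made up 29.0% (22.5 to 34.5%, n = 83), and in the broad shared regions 15.2% (7.84 to 27.4%, n = 37). Any place in a long region other than its middle gives unequal flanks, and no test of the asymmetry was made. The position of the edges is that of the merged regions, not of the signal.

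The study also listed genes next to enhancer candidates, with positions and strands. The 823 genes were picked by the study for their place and expression. The husk-specific list has 484 genes, for which higher expression in husk was required, the V2-IST-specific list has 61, for which the reverse was required, and the list of shared candidates has 296, with some genes in more than 1 list. A domain without a listed gene start may still hold a gene, and the share of domains at genes was not analysed here. The gene tables used give identifiers without symbols or roles for these genes. None of the expression values were used.

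Listed gene starts lay in 62 domains, 1 in each (4.32%, 3.38 to 5.50%), in 137 broad shared regions (5.97%, 5.08 to 7.02%) and in 63 narrow husk-only regions (0.740%, 0.579 to 0.946%), against 1.59% of all husk regions. Per Mb of acetylated sequence this came to 15.0 starts in the domains, against 12.3 over all husk regions. The broad shared regions had 19.5 and the narrow husk-only regions 7.67, so that the domains were nearer to all husk regions by density than by share. With a length over 3000 bp asked of both, the share was 5.00% of the domains (3.32 to 7.45%) and 9.94% of the broad shared regions, so that the nearness of the shares does not hold for longer regions. The share was 11.1% (5.49 to 21.2%) for domains over 5000 bp and between 3.72 and 4.65% in the 4 shorter classes.

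Of the 62 genes, 49 were in the husk-specific list, 14 in the shared list and 1 in the V2-IST-specific list, with 2 genes in both of the first lists. The selection of the gene lists favours husk, and the counts are no independent evidence of a direction. The exception, Zm00001d039840, was chosen after its values were seen. Its whole length of 1428 bp lay in the domain chr3:16366782-16368888, although it was listed beside a V2-IST-specific candidate and no V2-IST region lay within 5000 bp of the domain.

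The domains extended mainly along the gene. From the gene start, acetylation reached a median of 1952.5 bp downstream (1574 to 2244 bp) and 885.5 bp upstream (620 to 1219 bp). In the broad shared regions the medians were 2266 bp downstream and 784 bp upstream, and in the narrow husk-only regions 757 and 117 bp. The downstream side was the longer in 45 of 62 domains (72.6%, 60.4 to 82.1%), 110 of 137 broad shared regions (80.3%) and 53 of 63 narrow husk-only regions (84.1%). The longer reach in the domains than in the narrow regions follows in part from the length that chose them.

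Upstream of the start, 28 of 62 domains (45.2%, 33.4 to 57.5%) extended by more than 1000 bp, as did 61 of 137 broad shared regions (44.5%) and 4 of 63 narrow husk-only regions (6.35%). The gene itself was covered from start to end in 33 of 62 domains (53.2%, 41.0 to 65.1%), 78 of 137 broad shared regions (56.9%) and 15 of 63 narrow husk-only regions (23.8%). The narrow regions were at most 2000 bp long by selection and could not cover a longer gene. Their lower shares in both respects follow in part from that limit. At the domains, whole coverage went with gene length: it applied to 24 of 29 genes of at most 2000 bp, 8 of 20 genes between 2000 and 4000 bp and 1 of 13 longer genes. Across the 62 genes, Spearman's rho was 0.29 between gene length and downstream reach and 0.06 between gene length and domain length, given as a description, as genes are not independent replicates.

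**Figure D5:**
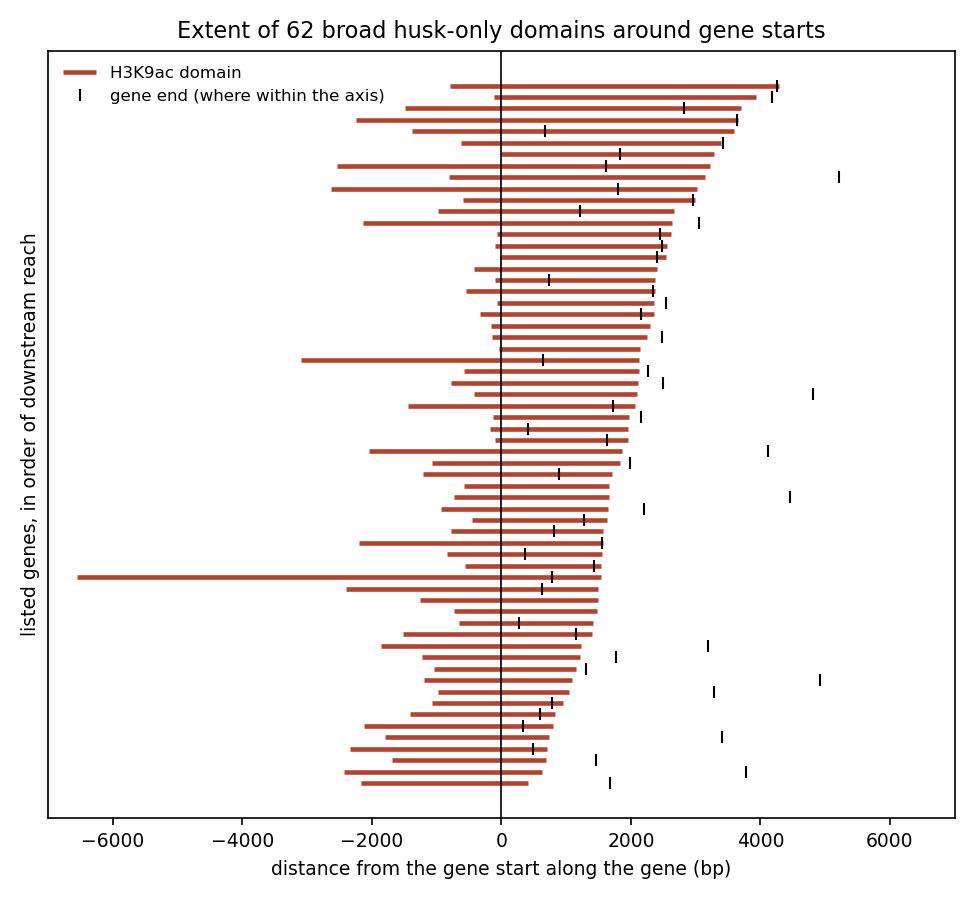
Extent of the 62 broad husk-only domains that hold the start of a listed gene. The x axis is the distance in bp from the gene start along the gene, each red line is 1 domain, black ticks mark gene ends that fall within the axis, and the domains are ordered by downstream reach from 407 bp at the bottom to 4291 bp at the top. The downstream side is the longer in 45 of the 62.

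Single genes show the different ways in which a domain lay over a gene. The longest domain at a listed gene was that of Zm00001d052152, a gene of 789 bp on chromosome 4. Of its 8090 bp, 6556 bp lay upstream of the gene start and 1533 bp downstream, and candidate H316 ended 4703 bp before the gene start. This was the farthest upstream reach of the 62 domains.

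In the domain of Zm00001d017978 (5891 bp), acetylation reached 3652 bp downstream and ended 18 bp past the end of the gene. In that of Zm00001d036727 (5092 bp), it covered the whole gene of 4252 bp, reached 800 bp upstream and ended 40 bp past the gene. In that of Zm00001d043062 (3591 bp), it ended 30 bp past a gene of 2961 bp, and in that of Zm00001d044826 (4009 bp) 31 bp short of the end of a gene of 3420 bp. Domain and gene thus ended within 40 bp of each other at these 4 genes, which are examples. Over all 62, the domain ended a median of 19.5 bp past the gene end, with quartiles of -1145.75 and 441 bp, where a negative value means short of the end.

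Other domains ran far past a short gene. The domain of Zm00001d009820 (4979 bp) covered a gene of 678 bp and ended 2918 bp past it, and that of Zm00001d023468 (5227 bp) extended 3095 bp upstream and 1490 bp past the end of a gene of 642 bp. The domains of Zm00001d053746 (5769 bp) and Zm00001d015515 (5653 bp) exceeded their genes, of 1610 and 1799 bp, by 2542 and 2627 bp upstream and by 1617 and 1227 bp past the end. Here most of the domain lay outside the listed gene.

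At most genes over 4000 bp, the domains covered only part of the gene, with 1 of 13 covered whole. The domain of Zm00001d022132 (2826 bp) covered 25.1% of a gene of 9576 bp. Outside the order of length, and chosen after their values were seen, the domains of Zm00001d016242 and Zm00001d019905 covered 14.4% of 15908 bp and 6.05% of 27373 bp. Their downstream reach, of 2293 and 1654 bp, was in the range of the other domains.

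In 8 domains (0.557%) a listed gene start and a candidate lay together, against 32 broad shared regions (1.40%) and 1 narrow husk-only region. Over all husk regions the share was 0.164%. The candidate lay upstream of the gene start in 5 of these and past the gene end in 3. Upstream candidates ended 1380 bp before the start of Zm00001d014166 (H670), 1450 bp before that of Zm00001d012292 (H907), 1624 bp before that of Zm00001d002847 (H565), 1668 bp before that of Zm00001d053746 (H270) and 4703 bp before that of Zm00001d052152 (H316). Past the gene end, H685 began 556 bp after Zm00001d045361, H516 617 bp after Zm00001d042752 and H352 1616 bp after Zm00001d009820. Of these, Zm00001d045361 and Zm00001d042752 were chosen after their values were seen. Promoters and genes were left out of the candidates by the study, so that none could lie directly at a gene start. In each of the 8, 1 merged husk region overlapped both gene start and candidate, and no V2-IST region lay within 5000 bp. Candidate H907 only touched its domain, with 9.97% of its length inside.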

How the data were processed

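H3K9ac ChIP-seq regions of husk (3 replicates) and V2-IST (2 replicates) of maize B73 were analysed, with 1 input record per tissue in the series. The deposited lists, 1 per tissue, give start and end in bp of merged regions on AGPv4, with no other value. The authors aligned the reads with BWA, filtered them with SAMtools, called peaks per replicate against input with MACS2, and kept and merged peaks that overlapped between replicates for most of their length. Versions of these tools are not given in the sources used here. Regions called in few replicates were thereby lost, and merging lengthens regions. The depth per sample is unknown from the lists.

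Starts are printed counted from 1. Domains were chosen by a length over 2000 bp and a gap over 5000 bp, and the number was checked with bedtools 2.31.1. An overlap was at least 1 bp. Shares have 95% Wilson intervals. The functions (Python 3.11.15, numpy 2.4.6, pandas 2.3.3, scipy 1.17.1, figures with matplotlib 3.10.9) were tested on simulated data. No test was run, since regions of 1 list are not replicates. The domains and lists were chosen with earlier results of these data known. Candidate and gene positions came from the study's supplementary tables; none of their measured values were used. Named regions are the 10 longest domains, the farthest from V2-IST, those nearest each limit and those of the densest 1 Mb window; named genes come from the first 30 in order of domain length, with exceptions marked in the text. Alternatives were other lengths, separations and overlap rules. Sequences, motifs and a full gene annotation were not analysed here.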

Additional observations from a re-analysis of the deposited data

How the results depend on the processing

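Of 35 alternative values, 25 moved by less than the interval of the reported value or stayed within 1.5 times the reported count, among them the number of domains with a separation over 10000 bp (1209), with no minimum separation (1792), with V2-IST regions of at least 500 bp only (1768) and with husk regions under 200 bp apart joined (1435). The other 10 moved. A length over 3000 bp left 440 domains and a length over 1500 bp gave 2610. With the length over 3000 bp, the share in the outer 20% at each chromosome end was 59.5%, the share with a candidate 15.7% (7.09% of the broad shared regions) and the median reach downstream of gene starts 2825.5 bp. The share with a listed gene start was then 5.00%, against 9.94% of the broad shared regions. With no minimum separation, the share at the chromosome ends was 59.4% and the share with another husk region within 5000 bp 36.9%, against 29.8% of the narrow and 36.1% of the broad shared regions, so that the domains no longer lay below the broad shared regions. That setting admits regions beside V2-IST acetylation. Other definitions gave 3.76% with another husk region within 1000 bp, 31.6% in the outer 10% at each end and 5.57% with a listed gene start within 1000 bp. No paired analysis was possible because each list merges its replicates, and for the same reason no replicate could be left out. With no depth, score or signal in the lists, weak acetylation under the calling limit cannot be told from none.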

Other observations

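The same selection turned round gave few regions in V2-IST. Of the 17170 V2-IST regions, 253 were longer than 2000 bp and 746 lay more than 5000 bp from a husk region, and 9 were both, against the 1435 broad husk-only domains. The longest of the 9 measured 2572 bp. The lists differ in length as a whole, and a limit of 1051 bp, which the same share of V2-IST regions exceeded as exceeded 2000 bp in husk, gave 123 V2-IST regions. Both the number of replicates merged and the tissue differ between the lists and cannot be told apart.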
